A study of Mus musculus with 6 samples.

Results

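Smooth muscle contractile genes were followed in bulk lung RNA from mice with and without Zpbp2. The members are Acta2, Myh11, Tagln, Cnn1, Des, Actg2, Lmod1, Synpo2, Smtn and Myocd, picked out of the table by their gene symbols, and they make up 10 of the 41388 genes in the count table. The series holds 6 lung libraries, all collected at zeitgeber time 7 h (ZT7, hours after lights on). WT libraries (WT1, WT2 and WT3) came from C57BL/6J mice. KO libraries (KO1, KO2 and KO3) came from Zpbp2 KO mice, in which the 5′ part of Zpbp2 is deleted in every cell of the body on the same C57BL/6J background. Both groups were adult mice kept in 1 colony, no treatment is named, and the labels do not give the sex or age behind each library. The comparison asks whether the deletion goes with a change in lung gene expression at this time of day.

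Smooth muscle in the lung surrounds the conducting airways and the larger vessels. Its cells shorten when myosin motors built around the heavy chain Myh11 slide along actin filaments made of Acta2 or Actg2, and the filaments are steadied or restrained by proteins such as transgelin (Tagln), calponin (Cnn1), smoothelin (Smtn) and leiomodin (Lmod1). Desmin (Des) and synaptopodin-2 (Synpo2) tie the contractile apparatus to the cytoskeleton, and myocardin (Myocd) is a coactivator that works with serum response factor (Srf) on the promoters of many of these genes.

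Srf binds a short element called the CArG box, which is the shared control sequence of this gene family, so the boxes are shown before the expression values. RefSeq promoter windows of 300 bases (250 before to 50 after the start, build GRCm38.p6) were found for 6 of the 10 members: Acta2, Cnn1, Des, Lmod1, Smtn and Synpo2. The box was searched by its consensus, which reads the same on both strands. None of these 6 windows held an exact box, and 535 of all 32851 windows (1.63%) did. With 1 of the inner letters allowed to differ, the Acta2 window held a pair of boxes, 84 and 34 bases before the start, and 3280 of all windows (9.98%) held at least 1. The stretch around both Acta2 boxes follows, with stretches from Srf itself, from Vcl (vinculin, an anchor of actin filaments) and from Myl9 (the regulatory myosin light chain), which hold exact boxes. Letters in capitals mark the boxes, and each stretch is written 5′ to 3′ on the gene's own strand.
Acta2, chr19:34255386-34255469, minus strand: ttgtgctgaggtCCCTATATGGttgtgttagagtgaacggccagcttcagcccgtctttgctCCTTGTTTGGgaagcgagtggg
Srf, chr17:46556203-46556256, minus strand: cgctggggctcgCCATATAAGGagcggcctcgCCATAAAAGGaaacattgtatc
Vcl, chr14:20929159-20929192, plus strand: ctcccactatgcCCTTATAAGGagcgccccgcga
Myl9, chr2:156775291-156775324, plus strand: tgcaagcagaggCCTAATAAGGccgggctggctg
A window without a match says only that these letters are not in it, and a match is a description of the sequence.

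Library totals ran from 59134950 to 71354388 counts. Zpbp2 had 20, 15 and 7 counts in the WT libraries and 1, 0 and 0 in the KO libraries, in the direction of the labels. KO2 and KO3 differed less than WT1 and WT2 did: their ratio to counting noise was 1.77 for genes of 200 to 2000 counts, 1.93 up to 20000 counts and 3.35 above, against 3.74, 9.36 and 52.7 for WT1 and WT2. They were above counting noise in all 3 ranges, yet close enough that they were summed and counted as 1 sample, and KO means below have n = 2. WT3 and KO1 stood apart from the rest in carrying skeletal muscle and squamous epithelium transcripts. Levels are given as CPM, the counts scaled to library size. The summed level of 14 skeletal muscle genes was 4753 and 7156 CPM in WT3 and KO1, and 87.3 to 206 CPM in the other 4 libraries. That of 15 squamous epithelium genes was 4875 and 9292 CPM in WT3 and KO1, and 29.1 to 38.8 CPM elsewhere, with Crnn at 0 in every library.

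Levels of different genes were set side by side per kb of annotated exon. In WT lungs Acta2 was at 148 ± 29.7 CPM per kb (SD, n = 3), Tagln at 108 ± 15.6 and Des at 82.3 ± 37, the latter pair differing by less than the SD of Des. A second tier held Myh11 (35.5 ± 6.4 CPM per kb), Smtn (29.1 ± 4.37), Cnn1 (27.8 ± 4.52) and Actg2 (27.3 ± 9.3), and the last 3 differed by less than 1 SD. Lmod1 (6.77 ± 2.05 CPM per kb) and Synpo2 (5.25 ± 0.713) came next and differed by less than 1 SD of Lmod1, and Myocd was lowest at 1.06 ± 0.301. In KO lungs the same genes averaged 155 (Acta2), 137 (Tagln), 117 (Des), 34 (Myh11), 27.4 (Smtn), 29.3 (Cnn1), 35.8 (Actg2), 8.79 (Lmod1), 3.96 (Synpo2) and 0.402 (Myocd) CPM per kb. The lung held far more transcript of the actin and its filament partners than of the coactivator in both genotypes.

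**Figure D1:**
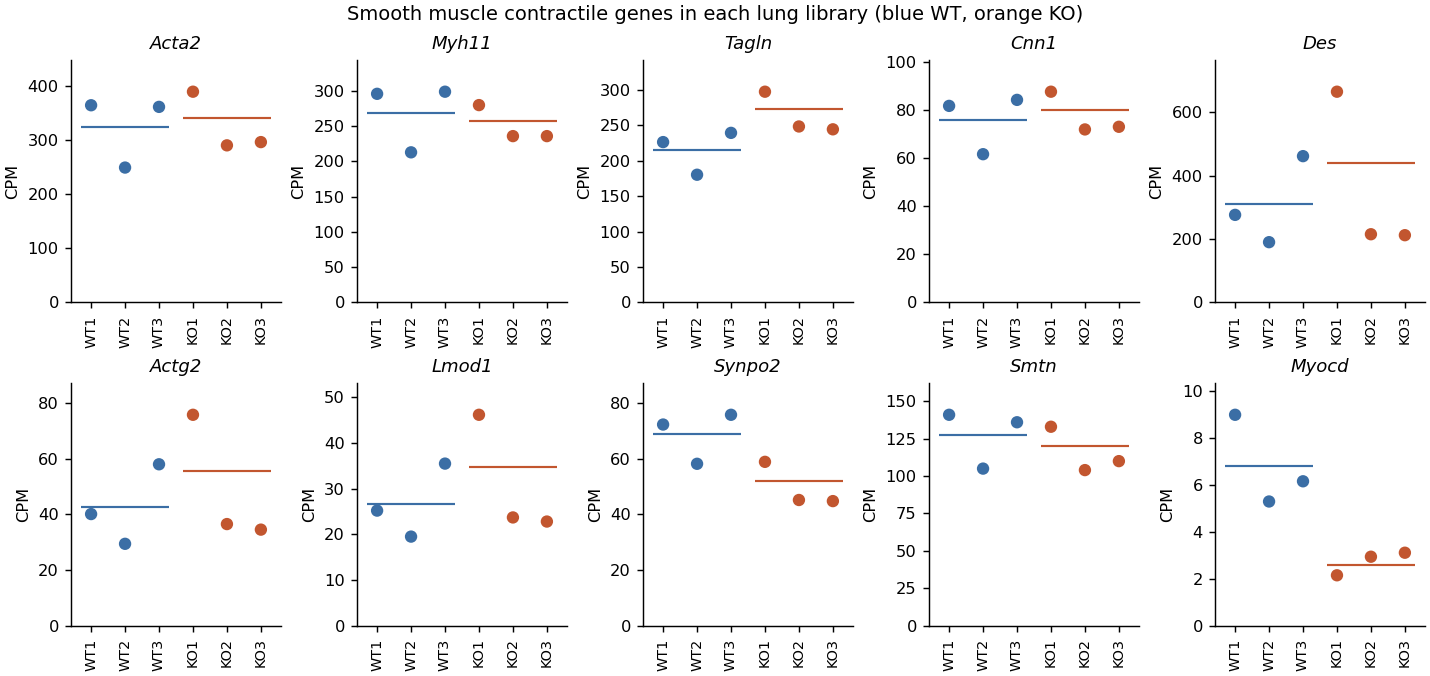
Level of each of the 10 genes (CPM, axis from 0) in every library, with 3 WT and 3 KO libraries as points and the group means as lines, the KO mean being that of KO1 and the mean of KO2 and KO3. Tagln is higher in every KO library than in every WT library, Myocd is lower in every KO library, and the other 8 genes overlap between genotypes.

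None of the 10 members was called between KO and WT at an edgeR adjusted p of 0.05 or less, where 2.28% of the 18660 genes tested were called. At an unadjusted p of 0.05 or less 1 member (Myocd) passed, against 27.3% of all genes tested. DESeq2 called Myocd alone, where it called 21.0% of genes. The log2 fold change (KO minus WT) of the members had a median of 0.08, with 6 above 0 and 4 below, and the median of all genes tested was 0.02. In 1 member (Tagln) every KO library lay above every WT library, as in 20.0% of genes tested, and in 1 (Myocd) every KO library lay below, as in 20.7%. In bulk lung RNA, fewer smooth muscle cells and less RNA per cell cannot be told apart, and the p-values measure the spread between these samples.

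**Figure D2:**
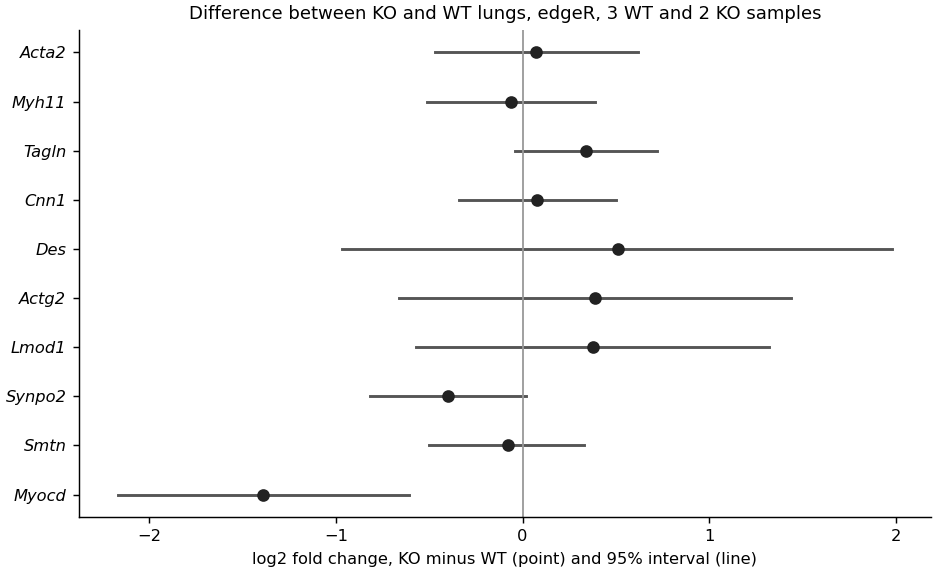
Log2 fold change of each gene, KO minus WT (horizontal axis), as points with 95% confidence intervals from the edgeR fit. The Myocd interval runs from -2.17 to -0.61 and the intervals of the other 9 genes include 0.

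The motor and filament genes differed little between genotypes. Acta2 (ENSMUSG00000035783, chromosome 19, 34241090 to 34255590 of GRCm38, minus strand), the alpha actin of smooth muscle, was at 364, 249 and 361 CPM in WT1, WT2 and WT3 and at 389, 290 and 296 CPM in KO1, KO2 and KO3. WT2 was the lowest library, KO1 the highest, and the groups overlapped. The log2 fold change was 0.07 ± 0.21 (SE, 95% interval -0.47 to 0.62, edgeR adjusted p = 0.859). Myh11 (ENSMUSG00000018830, chromosome 16, 14194535 to 14291372, minus strand), the smooth muscle myosin heavy chain, was at 296, 213 and 299 CPM in the WT libraries and 280, 236 and 236 CPM in the KO libraries, inside the WT range. Its log2 fold change was -0.06 ± 0.18 (interval -0.51 to 0.39, edgeR adjusted p = 0.862). At most 0.4% of the 50-base words of the longest Myh11 transcript also occurred in other genes, and 0.352% of those of Acta2.

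Actg2 (ENSMUSG00000059430, chromosome 6, 83512905 to 83536265, minus strand), the gamma actin of visceral smooth muscle, followed another pattern. It was at 40.1, 29.4 and 58 CPM in the WT libraries and 75.8, 36.5 and 34.5 CPM in the KO libraries. KO1 and WT3 were the highest, and the remaining 4 libraries lay from 29.4 to 40.1 CPM. The log2 fold change of 0.39 ± 0.41 (interval -0.66 to 1.44) did not pass (edgeR adjusted p = 0.594).

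Among the filament regulators, Cnn1 and Smtn were also alike in both groups. Cnn1 (ENSMUSG00000001349, chromosome 9, 22099216 to 22109630, plus strand), an inhibitor of the myosin motor, was at 81.8, 61.7 and 84.3 CPM in WT and 87.7, 72 and 73.1 CPM in KO libraries. Smtn (ENSMUSG00000020439, chromosome 11, 3517523 to 3540612, minus strand), an actin-binding protein of contractile smooth muscle, was at 141, 105 and 136 CPM in WT and 133, 104 and 110 CPM in KO libraries. Both genes overlapped between groups, with log2 fold changes of 0.08 ± 0.16 (interval -0.34 to 0.50, edgeR adjusted p = 0.789) and -0.08 ± 0.16 (interval -0.50 to 0.33, edgeR adjusted p = 0.779).

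Lmod1 (ENSMUSG00000048096, chromosome 1, 135324807 to 135368065, plus strand), which starts new actin filaments, resembled Actg2. It was at 25.2, 19.5 and 35.5 CPM in WT and 46.2, 23.7 and 22.8 CPM in KO libraries, again with KO1 and WT3 on top. The log2 fold change was 0.38 ± 0.37 (interval -0.57 to 1.32, edgeR adjusted p = 0.566).

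Tagln (ENSMUSG00000032085, chromosome 9, 45929619 to 45936058, minus strand), an actin-bundling protein and an early marker of smooth muscle, was at 226, 180 and 239 CPM in WT and 297, 248 and 244 CPM in KO libraries. All KO libraries lay above all WT libraries, by as little as 244 against 239 CPM. The means were 215 ± 31.1 CPM (SD, n = 3) and 272 ± 35.9 CPM (n = 2), and the log2 fold change of 0.34 ± 0.15 (interval -0.04 to 0.72) did not pass (unadjusted p = 0.0706, edgeR adjusted p = 0.222). Of the Tagln exon bases, 62.42% are overlapped by the antisense gene Gm48529, whose reads cannot be told apart from those of Tagln if counting ignored strand. Pcsk7, with up to 4175 counts in a library, overlaps 108 Tagln exon bases on the opposite strand. Gm11946 (at most 57 counts) overlaps 714 exon bases of Smtn and Gm15179 (at most 33 counts) 220 of Des. Within a library, the Tagln count over the Myh11 count was 0.764, 0.842 and 0.799 in WT and 1.06, 1.05 and 1.03 in KO libraries, without overlap. The Tagln log2 fold change was 0.19 without KO1, 0.22 without WT2 and 0.19 with an offset for gene length and GC content.

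The cytoskeletal genes had fold changes of opposite sign, and neither passed. Des (ENSMUSG00000026208, chromosome 1, 75360329 to 75368579, plus strand), the intermediate filament of smooth, cardiac and skeletal muscle, was at 276, 190 and 461 CPM in WT and 664, 215 and 212 CPM in KO libraries. KO1 and WT3 stood above the other libraries and the log2 fold change of 0.51 ± 0.58 had a wide interval of -0.97 to 1.98 (edgeR adjusted p = 0.624). Synpo2 (ENSMUSG00000050315, chromosome 3, 123076519 to 123236149, minus strand), an actin-bundling protein of the Z-disc and of dense bodies, was at 72.2, 58.1 and 75.7 CPM in WT and 58.8, 45.1 and 44.7 CPM in KO libraries. Only KO1, at 58.8 CPM, reached into the WT range, just above WT2. The log2 fold change was -0.40 ± 0.16 (interval -0.82 to 0.02, unadjusted p = 0.0574, edgeR adjusted p = 0.197).

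The Synpo2 call turned with the settings. With a term for the squamous epithelium transcripts it was called lower (log2 fold change -0.48, edgeR adjusted p = 0.0482), in a fit that called 10.9% of genes. Without WT3 and KO1, an alternative chosen after seeing the data that leaves 1 KO sample, the log2 fold change was -0.54. The Synpo2 call of that fit, where 11.9% of genes were called, is not counted here. With the length and GC offset the Synpo2 log2 fold change shrank to -0.16 (edgeR adjusted p = 0.674). The Synpo2 count over the Myh11 count was 0.243, 0.272 and 0.253 in WT and 0.21, 0.191 and 0.189 in KO libraries, without overlap.

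Myocd (ENSMUSG00000020542, chromosome 11, 65176561 to 65269989, minus strand), the coactivator of the family, differed most among the members. It was at 8.97, 5.28 and 6.14 CPM in WT and 2.14, 2.93 and 3.1 CPM in KO libraries, from 657, 371 and 368 counts and 135, 182 and 181 counts. Every KO library lay below every WT library. The means were 6.8 ± 1.93 CPM (SD, n = 3) and 2.58 ± 0.618 CPM (n = 2), and the log2 fold change of -1.39 ± 0.31 (interval -2.17 to -0.61) had an unadjusted p of 0.00568 and an edgeR adjusted p of 0.0704. It passed with the 6 libraries kept separate (-1.32, edgeR adjusted p = 0.018, 18.9% of genes called), with DESeq2 (-1.39, DESeq2 adjusted p = 1.47e-04) and with the squamous epithelium term (-1.32, edgeR adjusted p = 0.0389). Without WT3 and KO1, which leaves 1 KO sample, the log2 fold change was -1.25. Without WT1 the log2 fold change was -1.14 (edgeR adjusted p = 0.177).

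Myocd is also a gene of heart muscle, and cardiomyocyte transcripts were lower in the same libraries. The summed level of 16 cardiomyocyte genes was 7907, 3415 and 3037 CPM in WT and 2072, 1476 and 1485 CPM in KO libraries, and 11 of the 16 lay lower in every KO than in every WT library, against 20.7% of all genes tested. Of these 16 genes, 0 were called by edgeR. Bmp10, an atrial gene, was at 0 in WT2 and in all 3 KO libraries. WT1 was highest in both the cardiomyocyte sum and Myocd, while within the KO libraries KO1 was highest in the sum and lowest in Myocd. The genes in the sum did not all share its order. Myl3 was at 266, 8.64 and 8.51 CPM in KO libraries, Actn2 at 132, 30.9 and 30.2 CPM and Myh6 at 389, 359 and 364 CPM. KO1 was instead lowest for Ryr2 (36.3, 43 and 43.8 CPM) and Tnnt2 (210, 212 and 216 CPM). The sum therefore cannot rank heart muscle content within the KO libraries. Adipocyte transcripts were also lower in every KO library (141 to 320 CPM summed over 10 genes) than in every WT library (824 to 1400 CPM). All 10 genes lay lower in every KO library (20.7% of all genes tested), and 3 of the 10 were called lower by edgeR, where 2.28% of all genes were called. The part of these cells in the Myocd difference was not tested.

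**Figure D3:**
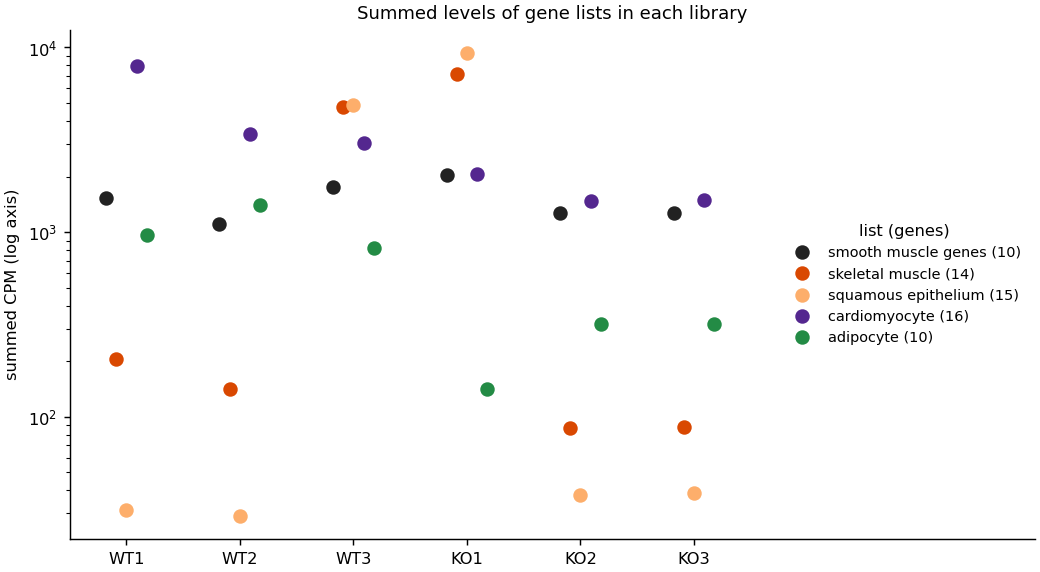
Summed level of 5 gene lists in each library (CPM, log axis). Skeletal muscle and squamous epithelium sums stand high in WT3 and KO1 alone, and cardiomyocyte and adipocyte sums are lower in every KO than in every WT library.

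Des, Actg2 and Lmod1 formed a subgroup set by WT3 and KO1. Des was 1.98-fold higher in WT3 than in the mean of WT1 and WT2, and 3.11-fold higher in KO1 than in the mean of KO2 and KO3. The corresponding ratios were 1.67 and 2.13 for Actg2 and 1.59 and 1.99 for Lmod1, and those of the others were smaller, from 1.1 (Smtn) to 1.18 (Acta2 and Tagln) in WT3 and from 1.19 (Myh11) to 1.33 (Acta2) in KO1, except for Myocd at 0.861 and 0.71. Across KO2 and KO3 against WT1 and WT2, the log2 difference was -0.12 for Des, 0.03 for Actg2 and 0.06 for Lmod1. In 4 of the 10 members (40.0%: Cnn1, Des, Actg2 and Lmod1) WT3 and KO1 were the highest pair of libraries, as in 12.5% of all genes tested. The skeletal muscle and squamous sums given above were high in the same libraries, and without those libraries the Des log2 fold change was -0.13. The source of this pattern was not tested.

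Count ratios within a library, which no scaling enters, depended on the gene below the line. Over Myh11, every KO library lay above every WT library for Tagln, Cnn1 and, barely, Acta2 (1.23, 1.17 and 1.21 in WT, 1.39, 1.23 and 1.25 in KO), as in 7.46% of all genes tested, and below for Synpo2 and Myocd, as in 5.98%. Over Acta2, every KO library lay above for Tagln (2.49% of all genes) and below for Myh11, Synpo2, Smtn and Myocd (7.19% of all genes). Tagln, Synpo2 and Myocd were separate over both genes. Cnn1 was separate over Myh11 (0.276, 0.289 and 0.282 in WT, 0.313, 0.305 and 0.309 in KO) and overlapped over Acta2.

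**Figure D4:**
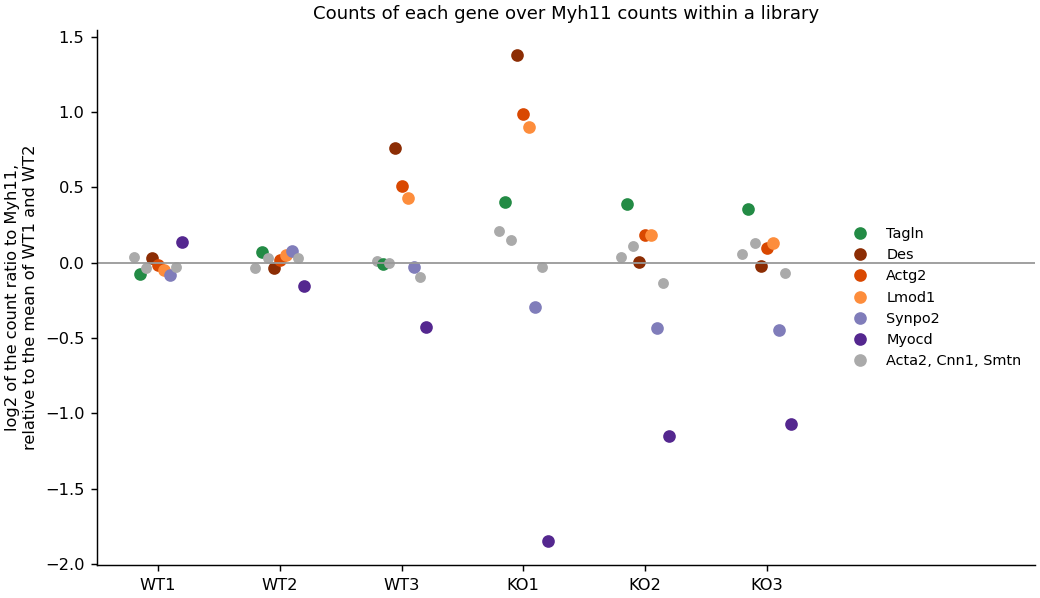
Log2 of each gene's count over the Myh11 count in the same library, relative to the mean of WT1 and WT2 (vertical axis), for 9 genes in 6 libraries, with Acta2, Cnn1 and Smtn in grey. Des, Actg2 and Lmod1 stand highest in WT3 and KO1, Tagln and, by less, Cnn1 and Acta2 (grey) are higher in all 3 KO than in all WT libraries, and Synpo2 and Myocd are lower in all 3, with Myocd also low in WT3.

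The partners were 39 further contractile genes, of the myosin light chains, tropomyosins, contraction signalling and adhesion. Tpm2 (beta tropomyosin), picked after its values were seen for its high level in WT3 and KO1, was at 122, 85.1 and 463 CPM in WT and 708, 117 and 117 CPM in KO libraries. WT3 and KO1 were the highest pair for 7 of the 39 partners (17.9%), Tpm2, Pdlim3, Pdlim7, Ldb3, Synm, Hspb6 and Mcam, a share near the 12.5% of all genes tested.

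Of the 39 partners, 1 was called higher and 0 lower by edgeR, where 2.28% of all genes were called. An unadjusted p of 0.05 was passed by 15 partners (27.3% of all genes) and DESeq2 called 13 (21.0% of all genes). In 16 partners every KO library lay below every WT library (20.7% of all genes), in 6 every KO library lay above (20.0% of all genes), and the median log2 fold change was -0.17. Myl6, the essential light chain of non-muscle and smooth muscle myosin, was at 155, 154 and 155 CPM in WT and 211, 235 and 226 CPM in KO libraries, and rose by a log2 fold change of 0.52 ± 0.06 (edgeR adjusted p = 0.0446, range over alternatives 3.85e-14 to 0.231). The groups did not overlap and the spread within each was small. Myl6 did not pass without WT1, WT2 or WT3 (edgeR adjusted p = 0.170, 0.189 and 0.123). Nor did it pass with the exact test (edgeR adjusted p = 0.231) or the length and GC offset (edgeR adjusted p = 0.0980). The partners with the highest mean CPM over all 6 libraries were Flna (filamin A, 1149, 1025 and 1158 CPM in WT, 1035, 1032 and 1041 in KO), Tpm1 (alpha tropomyosin, 927, 722 and 917 against 1126, 620 and 624) and Csrp1 (a LIM protein of smooth muscle, 644, 592 and 634 against 829, 706 and 708), and none of these passed (edgeR adjusted p = 0.481, 0.951 and 0.110). In the WT libraries alone Tln1 (talin, 657 CPM) exceeded Csrp1 (623 CPM).

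**Figure D5:**
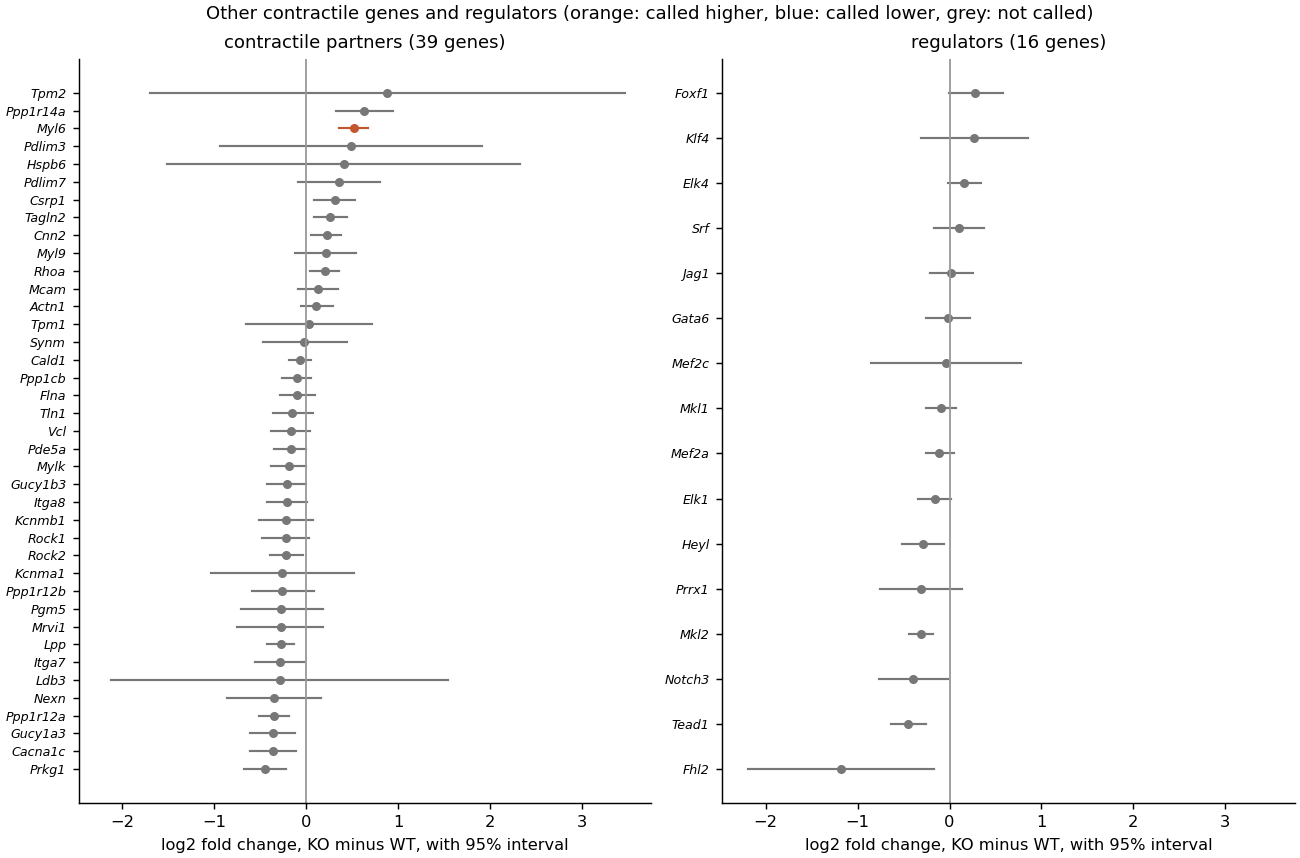
Log2 fold change (KO minus WT) of the contractile partners and the regulators of smooth muscle transcription from the edgeR fit. Myl6 is the only called gene, and most of the partners lie below 0 (25 of 39).

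Of 16 regulators tested, transcription factors and coactivators of the contractile programme, 0 were called by edgeR. An unadjusted p of 0.05 was passed by 5 and DESeq2 called 4, where 27.3% and 21.0% of all genes did so. Their median log2 fold change was -0.10. Srf was at 91.8, 78.7 and 97 CPM in WT and 101, 91.8 and 88.1 CPM in KO libraries, overlapping (edgeR adjusted p = 0.596). The highest in mean CPM over all 6 libraries were Foxf1, a factor of lung mesenchyme (0.28, edgeR adjusted p = 0.198), Tead1, the effector of Hippo signalling (-0.45, edgeR adjusted p = 0.0523), and Klf4, a repressor of the contractile programme (0.27, edgeR adjusted p = 0.502). In the WT libraries alone the order was Tead1 (245 CPM), Foxf1 (220), Notch3 (203) and Klf4 (185). Without KO1 the log2 fold change was 0.07 for Foxf1 and 0.01 for Klf4, and with the length and GC offset it was -0.20 for Tead1. Tead1 passed with separate libraries (edgeR adjusted p = 0.0104), also with a term for replicate number (0.0392). It passed with at least 10 counts (0.0436), the squamous term (0.0315) and DESeq2 (DESeq2 adjusted p = 1.04e-06). It did not pass with the exact test (edgeR adjusted p = 0.472) or the length and GC offset (0.177). Without WT3 and KO1, which leaves 1 KO sample, its log2 fold change was -0.39. Tead1 was at 226, 255 and 255 CPM in WT and 175, 179 and 188 CPM in KO libraries, without overlap. Mkl2, a coactivator of Srf picked after its values were seen, was at 107, 102 and 103 CPM against 83, 84.7 and 84.6 CPM (edgeR adjusted p = 0.0510).

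The mean profile of the members over the 6 libraries was closest to that of Fcho1 (r = 0.996), Rassf5 (0.996), Ltbp4 (0.994), Unc5a (0.992) and Pbxip1 (0.990), by the Pearson correlation of centred log2 CPM. KO2 and KO3 are close to each other and all 6 share scaling, so these are descriptions. Ltbp4, an elastic fibre protein, was at 990, 813 and 1084 CPM in WT and 1108, 830 and 842 CPM in KO libraries, with WT2 lowest, as in 7 of the 10 members.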

How the data were processed

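The labels give 6 mouse lung RNA libraries (3 WT, 3 KO), with KO2 and KO3 as separate samples, which their close counts put in doubt. The authors deposited raw counts per gene. The submitters' processing notes name Trimmomatic 0.36, STAR 2.5.3a, Picard 2.9.0 and HTSeq 0.6.0 with mm10, and read length, annotation release and strand setting are not given in the sources used here. GENCODE M21 held 97.5% of gene identifiers and gave positions and exon lengths. Counts were fitted with edgeR 4.0.16 in R 4.3.3 (quasi-likelihood test, filterByExpr, TMM), with Benjamini-Hochberg adjustment over all 18660 genes tested, and the threshold for a call was 0.05. The fit summed KO2 and KO3 (3 WT samples against 2 KO). CPM used TMM-scaled sizes, and the correlations of log2 CPM used a pseudocount of 0.5 CPM. DESeq2 1.42.0, other filters and scalings, a squamous epithelium term, a length and GC offset and left-out libraries were alternatives. The code was tested on simulated data. All members, the partners and regulators called and the 3 of each highest in mean CPM, without regard to length, were named by rule. A further gene is not reported here. The members, lists and the summing of KO2 and KO3 were chosen with earlier results of these data known.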

Additional observations from a re-analysis of the deposited data

How the results depend on the processing

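The member with the lowest counts, Myocd, had at least 135 in each library, and the effect of depth was not tested. The intervals were widest for Des, Actg2 and Lmod1 (SE 0.58, 0.41 and 0.37), beside 0.16 for Cnn1 and Smtn. The median log2 fold change of the members (0.08) changed sign without KO1 (-0.23), without WT2 (-0.07) and without WT3 and KO1 (-0.09), was 0.16 without WT3, and over all 17 alternatives moved by less than the spread within genotypes (SD 0.32). Without KO1, with or without WT3, the sum of KO2 and KO3 is the only KO sample, so calls of those fits are not counted here. Of the 10 members, 1 was called with the 6 libraries kept separate, 1 with DESeq2 and 2 with the squamous epithelium term, and 0 in the other alternatives. Partners called numbered 8 with separate libraries, 3 with a minimum of 10 counts per library, 13 with DESeq2, 0 with the exact test, 5 with the squamous term, 0 with the length and GC offset, and 0 to 1 when 1 library other than KO1 was left out. Regulators called numbered 4 with separate libraries, 2 with at least 10 counts, 4 with DESeq2 and 4 with the squamous term. All genes called numbered 306 with library size scaling, 937 with at least 10 counts, 3402 with separate libraries, 3919 with DESeq2, 209 with the exact test, 2026 with the squamous term, 0 with the length and GC offset, and 0 to 418 when 1 library other than KO1 was left out (0 without any 1 WT library). The causes were not tested.

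Directions changed as follows. Acta2 was at -0.01 with the squamous term, -0.03 with the length and GC offset, -0.07 without WT3 and KO1, and -0.15 to 0.16 over left-out libraries. Myh11 was at 0.02 with the offset and -0.21 to 0.02 over left-out libraries, and Cnn1 at -0.01 and -0.07 to 0.16. Des was at -0.13 without WT3 and KO1 and ran from -0.53 (without KO1) to 0.92 (without WT3). Actg2 ran from -0.26 to 0.68 and Lmod1 from -0.20 to 0.63, lowest without KO1. Flna was at 0.01 with the offset. Without KO1 Synpo2 was at -0.62, Smtn at -0.26 and Csrp1 at 0.18, with their signs kept. Tpm1 was at -0.11 with separate libraries, -0.02 with library size scaling, -0.14 with the squamous term, -0.41 without WT3 and KO1, and -0.46 to 0.10 over left-out libraries.

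The deviations of same-numbered libraries from their group means correlated at -0.656, 0.755 and -0.821. KO2 and KO3 are close to each other, so these values cannot show or exclude that replicate numbers pair the samples. With the replicate block, 0 members, 6 partners, 3 regulators and 1157 genes were called, and Tpm1 was at -0.16.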

Other observations

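Other cell types of the vessel wall and stroma were followed as summed levels. The 10 pericyte genes, cells that wrap capillaries, summed to 518 to 629 CPM in WT and 463 to 598 CPM in KO libraries, and 0 were called by edgeR (3 at an unadjusted p of 0.05, near the 27.3% of all genes tested). Of the 10, 4 lay lower in every KO than in every WT library (20.7% of all genes tested) and 1 lay higher (20.0%). Their median log2 fold change was -0.22. Pdgfrb, the highest of them in CPM without regard to length, was at 310, 242 and 302 CPM in WT and 274, 228 and 226 CPM in KO libraries. The 10 fibroblast genes summed to 5401 to 6230 CPM and 5032 to 6294 CPM, with Inmt the highest in CPM. Of the 10, 4 had a log2 fold change above 0 and 6 below, the median was -0.05, and 1 was called (2.28% of all genes tested). That gene, Dcn (decorin, a collagen-binding proteoglycan), fell by 0.88 on the log2 scale (edgeR adjusted p = 0.0446, range over alternatives 9.58e-19 to 0.189). Dcn was at 379, 410 and 414 CPM in WT and 233, 201 and 200 CPM in KO libraries. Endothelial genes summed to 4583 to 4909 CPM and 4411 to 5329 CPM. Mesothelial genes, of the lung's outer lining, summed to 314 to 337 CPM in WT and to 289, 463 and 467 CPM in KO1, KO2 and KO3. Nerve and Schwann cell genes summed to 598 to 638 CPM and 578 to 647 CPM, and cartilage genes to 12.5 to 23.5 CPM and 8.44 to 8.92 CPM. Of the 10 cartilage genes tested, 7 lay lower in every KO than in every WT library (20.7% of all genes tested), and 0 were called by edgeR.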
